A study of Mus musculus with 5 samples.

Results

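The cytochrome P450 genes of the mouse kidney were followed across 57579 cells of a single-cell RNA sequencing study of acute kidney injury. The family was taken as every gene whose symbol is Cyp followed by a family number, a subfamily letter and a gene number, without the vitamin D genes Cyp24a1 and Cyp27b1, which left 91 of the 32285 genes in the matrix. The study clamped the left renal pedicle of young male C57BL/6J mice, a unilateral ischemia-reperfusion (UIR) injury that leaves the right kidney intact, and labelled 4 AKI samples, at days 1, 3, 14 and 28, and 1 Sham sample, each kidney sample, as the labels put it, coming from 3 mice. The study's methods speak of more matrices than the 5 libraries here, so how libraries relate to mice is not known. Libraries were made with a droplet 3' kit that counts each captured RNA molecule once as a unique molecular identifier (UMI), so levels are given as a member's share of the cells' UMIs in CPM, UMIs of a gene per 1e+06 UMIs of the same cells, and can be compared between genes without dividing by length. The deposited matrix merges 5 libraries, told apart by the last digit of the barcode, and no label ties a digit to Sham or to a day after injury. It was therefore treated as 1 sample: no comparison by time was made, no test was run and no p-value is given. Intervals are exact 95% intervals that cover counting error only, and for many but not all values each library's value is given beside the pooled one. The labels call the cells goblet cells, but the 7 goblet markers checked, Muc2 and Tff3 among them, held at most 55 UMIs each over all cells, and kidney markers defined the classes instead.

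P450 enzymes are heme proteins, mostly of the endoplasmic reticulum, that insert an oxygen atom into their substrates and draw electrons from P450 reductase (Por) and cytochrome b5. In the kidney they are known above all from the proximal tubule, where Cyp4a and other Cyp4 enzymes hydroxylate the ends of fatty acids such as arachidonic acid, Cyp2c and Cyp2j enzymes turn the same acid into epoxides, and Cyp2a, Cyp2d and Cyp2e enzymes handle steroids and foreign compounds. The straight S3 segment of the proximal tubule lies in the outer medulla and is the segment most exposed to ischemia, whereas S1 begins at the glomerulus.

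Cells were sorted into 14 classes with marker lists that contain no Cyp gene. Of the kept cells, 49613 took 1 class, 6318 took none and 1648 passed the gates of several classes and were left out. Proximal tubule cells made up 43883 of them, and within these 15478 passed the S1 list alone and 12906 the S3 list alone. Several other classes were small, with 88 intercalated cells, 67 podocytes and 52 fibroblast and mural cells. The podocyte-gated cells had a median of 815 UMIs, against 5268 in proximal tubule cells, and 40 of the 67 came from library 2. Between 20 and 67 barcode sequences were shared by each pair of libraries, 352 sequences in all.

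The proximal tubule held most of the P450 message. Summed over all 91 members, the level was 3872 CPM in proximal tubule cells, and each other class of at least 50 cells lay between 197 CPM in dendritic cells and 811 CPM in neutrophils. Per library, the proximal tubule sum was 5186, 4152, 2249.6, 3414 and 5068 CPM in libraries 1 to 5, so that libraries 1 and 5 were highest and library 3 lowest. Only a few genes carried this message. Cyp4b1, Cyp2e1 and Cyp2j5 held 62.6% of all member UMIs in gated cells, and the 6 most abundant members held 80.1%. By role, the 17 Cyp4 fatty acid hydroxylases held 48.2%, the 28 members of the foreign compound and steroid group 28.1%, the 23 Cyp2c and Cyp2j epoxygenases 22.2% and the 6 sterol and bile acid members 1.04%.

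Among the fatty acid hydroxylases, Cyp4b1, which acts on shorter fatty acids and on several plant and lung toxins, stood at 1159.8 CPM in proximal tubule cells (interval 1156 to 1164). It was read at 1607, 1109, 593, 855 and 1884 CPM in libraries 1 to 5. Cyp4a10 stood at 301 CPM, Cyp4a31 at 242 CPM and Cyp4a14 at 135 CPM, all members of the PPAR-alpha responsive Cyp4a cluster. Cyp4f13 reached 17.9 CPM and Cyp4f17 5.79 CPM. Among the epoxygenases, Cyp2j5, an arachidonic acid epoxygenase of kidney and liver, stood at 631 CPM (628 to 634), with 690.2, 689.7, 435, 641 and 778 CPM in libraries 1 to 5. Cyp2j13 stood at 102 CPM, Cyp2j11 at 93.7 CPM and Cyp2c23 at 17.7 CPM. Thus the Cyp2j enzymes outweighed the Cyp2c enzymes by far in these cells. In the foreign compound group, Cyp2e1, which oxidises ethanol, acetaminophen and acetone, stood at 646 CPM (643 to 649), with 764, 1043, 351, 531 and 634 CPM in libraries 1 to 5. Cyp2d26 at 119.9 CPM, Cyp2a4 at 119 CPM, Cyp2a5 at 89.0 CPM and Cyp2d9 at 66.9 CPM followed. Cyp2a4 and Cyp2d9 are best known as testosterone hydroxylases and Cyp2a5 as the coumarin and nicotine hydroxylase.

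**Figure D1:**
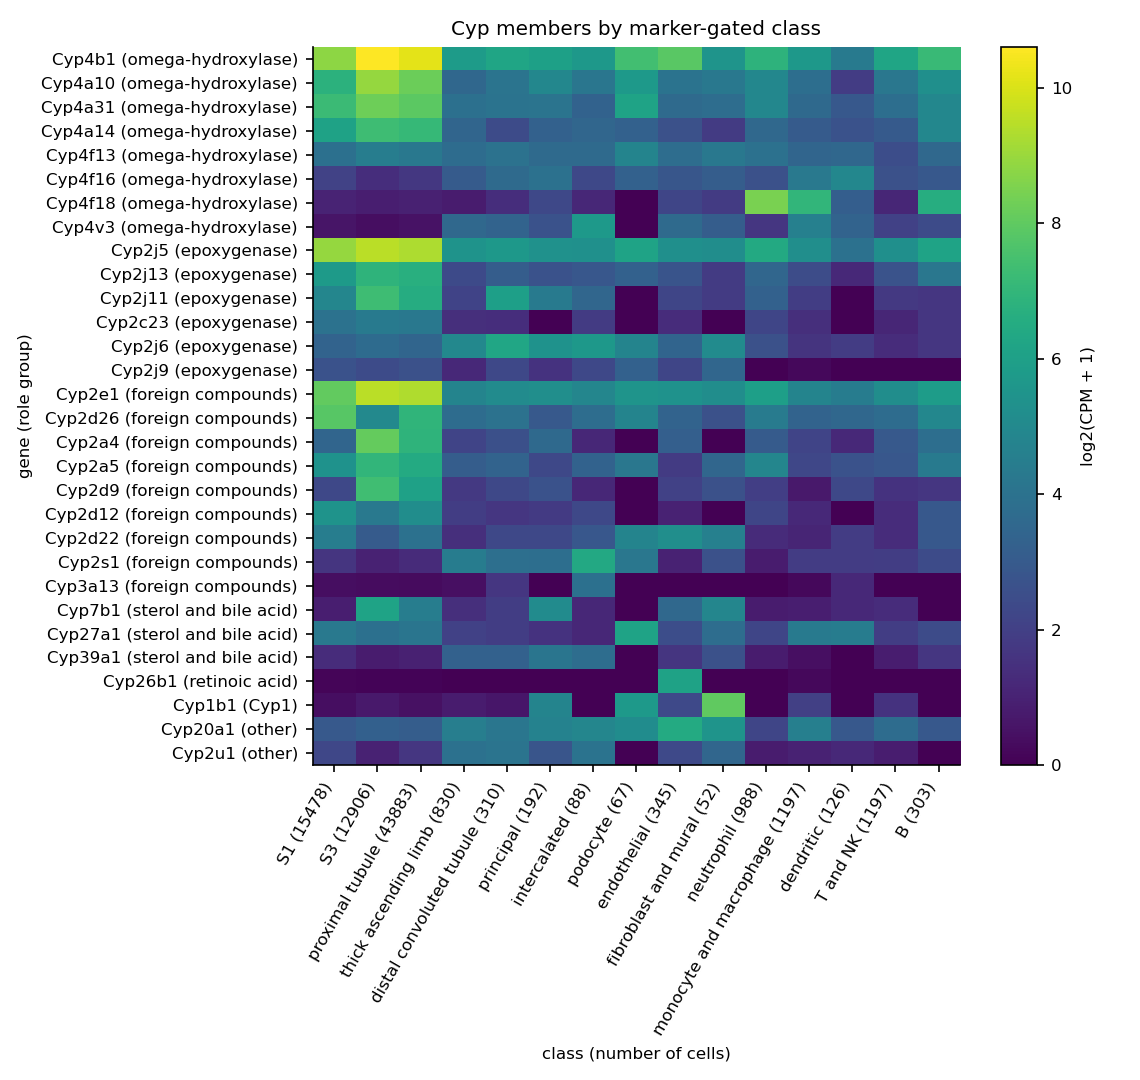
Level of 30 cytochrome P450 genes (rows, ordered by role group) in S1, S3 and all proximal tubule cells and in 12 other classes (columns, with the number of cells), coloured by log2(CPM + 1). The abundant Cyp4, Cyp2j, Cyp2e, Cyp2a and Cyp2d genes are brightest in the proximal tubule columns, whereas Cyp4f18, Cyp1b1, Cyp26b1, Cyp20a1 and Cyp2s1 are brightest in single other classes.

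Of the 91 members, 23 had no UMI in any kept cell, a further 3 had none in the gated cells, and 26 had between 1 and 48 UMIs in the gated cells, which left 39 with at least 50. All 6 steroid hormone members, the Cyp11, Cyp17, Cyp19 and Cyp21 genes of adrenal and gonad, were in the sparse group with 15 UMIs between them. A count of 0 allows up to 3 UMIs among the 2.8746e+08 UMIs of the gated cells, for counting error only. The highest class could be read for 34 members with at least 20 UMIs over the gated cells and at least 10 in that class. It was the proximal tubule for 19 of the 34, against 17.3% of the 12073 genes that met the same limits. The intercalated cells were highest for 4, against 6.81% of those genes, endothelial cells for 3 (14.9%), distal convoluted tubule cells for 2 (4.42%) and principal cells for 2 (8.03%). Dendritic cells (3.84%), fibroblast and mural cells (10.1%), neutrophils (7.22%) and thick ascending limb (4.08%) were highest for 1 each, the last being Cyp26a1 on 11 UMIs, and with counts this small nothing is read from these shares. For none of the 34 was it podocytes (5.21% of genes), monocytes and macrophages (4.22%), T and NK cells (9.38%) or B cells (4.51%). For another 12 members the highest class rested on fewer than 10 UMIs and was not read. Examples are Cyp27a1 in podocytes (8 UMIs) and Cyp2r1 in fibroblast and mural cells (1 UMI). For all 12 that class lay outside the proximal tubule. The limit of 10 UMIs favours the proximal tubule, which held 263468005 of the gated UMIs, for members and for all genes alike.

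Low levels of the tubule genes were found in every class. A droplet also takes up free RNA from the suspension, and this was gauged from barcodes with few UMIs. They held from 489 down to 15 UMIs in library 3 and no more than 225 in any other library. Whether some of them were cells was not tested. In these barcodes the 91 members summed to between 1596 and 2390.2 CPM when weighted to the libraries of each class or segment. The 12 members over 50 CPM in proximal tubule cells had a median of 1.99 times the low-count barcode level there, with Cyp2d26 lowest at 0.735. By segment the median was 0.914 in S1, 2.61 in S3 and 2.24 in the other proximal tubule cells, so S1 cells did not stand above the low-count level. In the other classes of at least 50 cells that median ratio was between 0.0461 in dendritic cells and 0.293 in B cells. T and NK cells, which should lack them, held a UMI of Cyp4b1 in 13.3% of cells at a median of 1750 UMIs, against 80.0% in proximal tubule cells at a median of 5268. How much of the level of these 12 genes outside the proximal tubule came from free RNA was not tested. Among ratios that rested on at least 10 UMIs, those over 2 times the class's median were Cyp2j11 in distal convoluted tubule cells, at 2.30 times the low-count level where the class's median was 0.147, and in principal cells, at 0.679 where the median was 0.151. Another was Cyp4b1 in endothelial cells, at 0.423 where the median was 0.114, and another Cyp2a5 in neutrophils, at 0.549 where the median was 0.215 (38 UMIs). Cyp2j11 in intercalated cells (0.369 against 0.114) and Cyp4a31 in podocytes (0.489 against 0.176) were also above, each on 8 UMIs.

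Outside the proximal tubule, Cyp4f18 was higher in neutrophils, in monocytes and macrophages and in B cells than in any other class. It is the mouse enzyme that inactivates leukotriene B4, a chemoattractant of neutrophils. The level was 355 CPM in neutrophils (324 to 388), at 124 CPM in monocytes and macrophages (115 to 133) and at 96.9 CPM in B cells (70.4 to 130.1), but at 7.92 CPM in dendritic cells (2.91 to 17.2), 1.18 CPM in T and NK cells and 0.949 CPM in proximal tubule cells. In neutrophils the level was 382, 433, 269 and 392 CPM in libraries 1 to 4, and library 5 held 1 neutrophil. In monocytes and macrophages it was 143, 98.4, 117, 155 and 158 CPM in libraries 1 to 5. Thus every library with enough cells placed neutrophils above monocytes and macrophages. A UMI was seen in 34.7% of neutrophils at a median of only 1286.5 UMIs, against 0.167% of T and NK cells. Cyp4f16, a related Cyp4f enzyme, was highest in dendritic cells at 29.1 CPM (18.2 to 44.0) and stood at 18.4 CPM in monocytes and macrophages, so that these intervals overlap.

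Endothelial cells, 345 in number, were highest for Cyp26b1, which clears retinoic acid, and nearly alone in it. Its level was 67.1 CPM (56.1 to 79.7), with 30.6, 95.05 and 30.9 CPM in libraries 1 to 3, and 130 of its 153 UMIs in gated cells lay there. Cyp20a1, an enzyme without a settled substrate, stood at 88.3 CPM (75.5 to 102.5) in endothelial cells, with 114, 84.5 and 55.2 CPM in libraries 1 to 3, and at 43.9 CPM in fibroblast and mural cells. Cyp2d22 reached 37.2 CPM in endothelial cells and 14.4 CPM in proximal tubule cells. Cyp4b1 stood at 237 CPM in endothelial cells (216 to 260), with 136, 363 and 146 CPM in libraries 1 to 3. T and NK cells of the same libraries held 57.5, 47.3 and 168 CPM of Cyp4b1, so the endothelial level was above theirs in libraries 1 and 2 and not in library 3. Cyp2e1, which is less abundant than Cyp4b1 in the free RNA, stood at 41.3 CPM in endothelial cells and 36.2 CPM in T and NK cells. Cyp1b1, which oxidises estradiol and aromatic hydrocarbons, was a gene of the fibroblast and mural cells, at 261 CPM (212 to 317) and with a UMI in 55.8% of them. Only library 1 had at least 20 such cells, and there the level was 290.1 CPM. Principal cells read 26.8 CPM of Cyp1b1, but this came from library 1 alone, which gave 94.2 CPM where libraries 2 and 3 gave 0.

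Several members were highest in a class of the distal nephron. Intercalated cells, which secrete acid or base, were highest for Cyp2s1 at 83.6 CPM (64.5 to 106.6), for Cyp4v3 at 50.2 CPM (35.7 to 68.6) and for Cyp3a13 at 14.1 CPM (7.06 to 25.3), with a UMI of Cyp2s1 in 36.4% of them. The class next to them for Cyp4v3 was monocytes and macrophages, at 23.4 CPM (19.7 to 27.6). In proximal tubule cells the same genes stood at 1.499, 0.448 and 0.235 CPM. Cyp1a1, the classic target of the aryl hydrocarbon receptor, had 22 of its 48 UMIs in intercalated cells, and it is named here after its values were seen. Only library 3 held at least 20 intercalated cells, so no spread between libraries can be given. Cyp2j6 was highest in distal convoluted tubule cells at 76.6 CPM (64.4 to 90.5), with 63.4, 148, 65.9 and 69.8 CPM in libraries 1, 2, 3 and 5, and stood at 48.9 CPM in intercalated, 41.9 CPM in principal, 30.1 CPM in thick ascending limb and 10.1 CPM in proximal tubule cells. Thus one Cyp2j gene, Cyp2j6, ran opposite to the related Cyp2j5 and Cyp2j13. Cyp2j11 was read in both the proximal and the distal tubule, at 62.3 CPM in distal convoluted tubule cells, with 115, 134, 30.5 and 145 CPM in libraries 1, 2, 3 and 5. Cyp2u1, a fatty acid hydroxylase outside the Cyp4 family, stood at 15.99 CPM in distal convoluted tubule, 15.4 CPM in intercalated and 14.7 CPM in thick ascending limb cells, which do not differ beyond their intervals, and at 2.20 CPM in proximal tubule cells. Among whole classes, principal cells were highest for a pair of oxysterol hydroxylases, Cyp7b1 at 34.1 CPM (26.6 to 43.1) and Cyp39a1 at 16.6 CPM (11.5 to 23.2). For Cyp7b1, fibroblast and mural cells at 28.4 CPM lay within that interval, and the S3 segment alone, at 69.2 CPM, lay above it. Cyp7b1 in principal cells was 29.1, 36.8 and 35.3 CPM in libraries 1, 2 and 3, an even level that its proximal tubule values did not share.

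**Figure D2:**
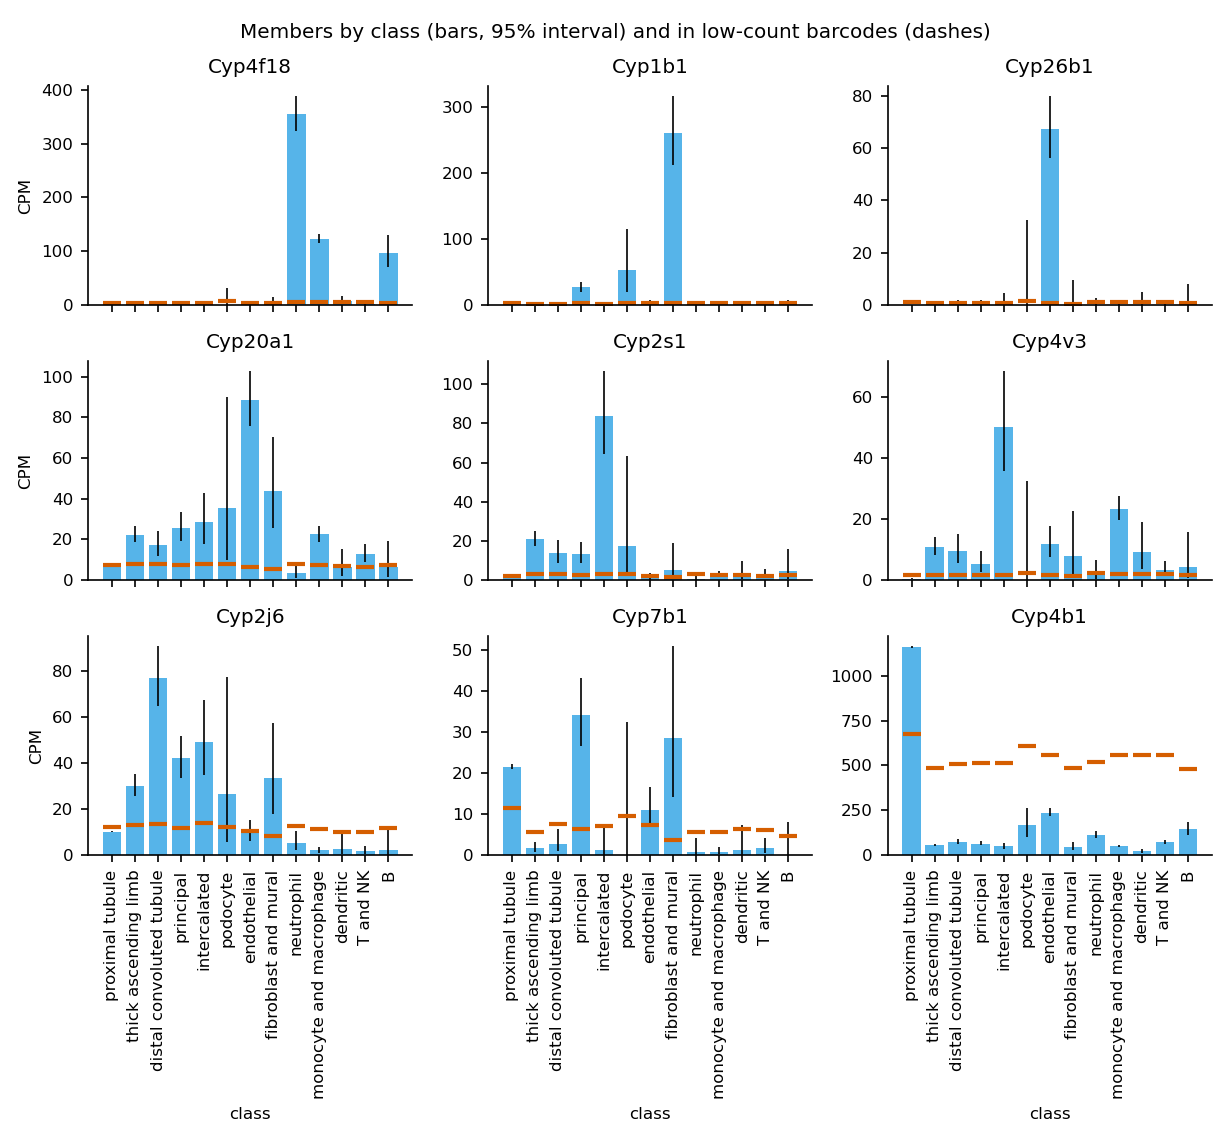
Level of 9 cytochrome P450 genes in CPM (bars, with exact 95% Poisson intervals) in 13 classes, beside the level in low-count barcodes weighted to the same libraries (orange dashes). Cyp4f18 rises far above the dash in neutrophils, Cyp1b1 in fibroblast and mural cells, Cyp26b1 and Cyp20a1 in endothelial cells and Cyp2s1 and Cyp4v3 in intercalated cells, whereas Cyp4b1 lies above it in proximal tubule cells only.

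Within the proximal tubule, S3 cells held more P450 message than S1 cells, and single genes were split much further in both directions. The summed level was 5027 CPM in S3 and 2041 CPM in S1, a log2 ratio of 1.30. The other 15499 proximal tubule cells, which passed both lists or neither, stood at 4672 CPM and are left out of these ratios. A gene higher in S3 than in S1 need therefore not be highest in S3. Per library, S3 read 5777, 4498, 3393, 4093 and 5488 CPM and S1 read 2172, 2109, 1774, 2399 and 2529 CPM in libraries 1 to 5, so that every S3 value lay above every S1 value. The log2 ratio within libraries was 1.41, 1.09, 0.94, 0.77 and 1.12. Of 41 members with at least 20 UMIs over both segments, 14 were at least 2-fold higher in S3, against 5.22% of the 15336 genes compared, and 13 were at least 2-fold lower, against 17.3%. The lower count moved most with the cells kept, to 6 of 35 (12.8% of genes) with a mitochondrial share of at most 10% and 7 of 31 (13.8%) with each cell thinned to 2000 UMIs, and the higher count to 9 of 42 (4.69%) when cells had to reach a marker share of 0.5 of the reference of a class or segment in place of 0.3. The median log2 ratio was -0.23 over these members and -0.30 over all genes compared. Within libraries 1 to 5 the member median was instead 0.78, 0.28, 0.22, 0.26 and 0.59, over 28, 29, 32, 28 and 29 members. That of all genes compared was -0.21, -0.30, -0.16, -0.14 and -0.20. Library 3 gave 7849 of the S1 cells and 1100 of the S3 cells, and the pooled counts were not matched for library.

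The largest ratios toward S3 were those of Cyp7b1, Cyp2d9 and Cyp2a4, the first of the sterol and bile acid group and the others of the foreign compound and steroid group. By group, 5 of 12 fatty acid hydroxylases were at least 2-fold higher in S3 and 1 was lower. The counts were 3 and 3 of 10 epoxygenases, 4 and 5 of 10 foreign compound members and 1 and 2 of 4 sterol and bile acid members. Over all genes the shares were 5.22% higher and 17.3% lower. With so few members in each group, no difference between groups is read from these counts. Cyp7b1 stood at 69.2 CPM in S3 and 0.864 CPM in S1, a log2 ratio of 6.32 (6.002 to 6.67). Its ratio within libraries 1, 2, 3 and 5 was 7.12, 8.42, 1.75 and 5.25. In library 4, with too few UMIs for the comparison, it read 0.333 CPM in S3 and 0.278 CPM in S1, so the size of the difference was not shared by the libraries. Cyp2d9 stood at 161 CPM in S3 and 3.88 CPM in S1, a log2 ratio of 5.38 (5.22 to 5.53), and its ratio within libraries was 4.80, 4.95, 3.75, 3.03 and 4.48. Cyp2a4 stood at 271 CPM in S3 and 10.1 CPM in S1, a log2 ratio of 4.74 (4.64 to 4.84), with 4.97, 5.89, 3.60, 3.80 and 5.06 within libraries. The S1 levels of these genes were under those of low-count barcodes. Cyp2a4 was 0.318 times its low-count barcode level in S1, beside 0.353 in B cells (6 UMIs) and 0.152 in T and NK cells. Cyp2d9 was 0.230 times its low-count level in S1, beside 0.210 in neutrophils (4 UMIs) and 0.0819 in T and NK cells. How much of the S1 level is free RNA was not tested.

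Among the fatty acid hydroxylases and epoxygenases, members went both ways. The log2 ratio of S3 over S1 was 2.49 for Cyp2j11, 2.14 for Cyp4a10, 1.81 for Cyp4b1, 1.21 for Cyp4a14, 1.13 for Cyp2j13 and 1.05 for Cyp4a31, and all 5 libraries gave each of them a positive ratio. On the other side, 1 fatty acid hydroxylase and 3 epoxygenases, the sparse Cyp2c38, Cyp2c68 and Cyp2c69 given below, were at least 2-fold lower in S3. Others on that side, such as Cyp4f16 (-0.99), Cyp4f17 (-0.62) and Cyp2j9 (-0.29), were short of 2-fold. Cyp4b1 read 1784, 1249, 1038, 1127 and 1879.9 CPM in S3 and 486, 356, 411, 462 and 687 CPM in S1 of libraries 1 to 5. Cyp2e1 and Cyp2a5 had log2 ratios of 1.47 and 1.59. Cyp2j5 was the most even of the abundant members, at 731 CPM in S3 and 479 CPM in S1 (log2 ratio 0.61), and Cyp2c23 had a log2 ratio of 0.37. The call of Cyp1b1 as higher in S3 (log2 ratio 1.07, on 51 and 29 UMIs) rested on library 1, without which the ratio was -0.86.

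Among the abundant members the one furthest to the S1 side was Cyp2d26, at 227 CPM in S1 and 30.8 CPM in S3, a log2 ratio of -2.88 (-2.95 to -2.82). It read 356, 347, 107, 343 and 365 CPM in S1 and 30.3, 22.4, 22.1, 47.1 and 33.6 CPM in S3 of libraries 1 to 5, so the segments did not overlap in any pair of libraries. Its S3 level was 0.187 times that of low-count barcodes, beside 0.195 in neutrophils and 0.128 in T and NK cells. Cyp2u1 had a log2 ratio of -1.87, Cyp2d22 of -1.59 and Cyp2d12 of -1.17, negative in all 5 libraries for each. The sparse Cyp2c genes Cyp2c38, Cyp2c68 and Cyp2c69 had 52, 40 and 55 UMIs in S1 and 2 UMIs each in S3, log2 ratios of -4.44, -4.06 and -4.52. In the last 500 bases of the transcript, 23.8% of 90-base windows of Cyp2c69 and 28.0% of those of Cyp2c68 also occur in another Cyp2c transcript. These windows are not shared between Cyp2c68 and Cyp2c69 themselves, but the count of each is uncertain. Thus the Cyp2d family was divided, with Cyp2d9 on the S3 side and Cyp2d26, Cyp2d22 and Cyp2d12 on the S1 side and all on chromosome 15.

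**Figure D3:**
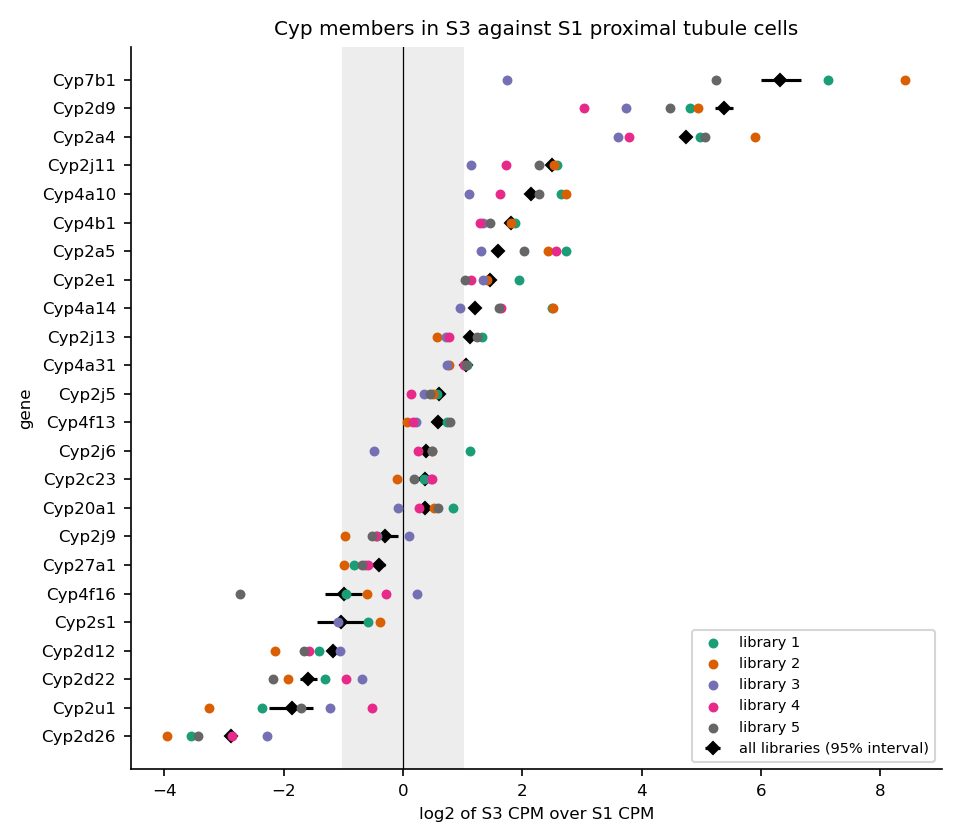
Log2 ratio of S3 CPM over S1 CPM for 24 cytochrome P450 genes with at least 200 UMIs over both segments (black diamonds, with exact 95% intervals) and within each of the 5 libraries (coloured points), the grey band marking less than 2-fold. Cyp7b1, Cyp2d9 and Cyp2a4 lie far to the right and Cyp2d26 far to the left in the pooled values, and the points of library 3 sit nearer to 0 for most genes.

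The promoters of 2 gene pairs are shown because the members of each pair share a subfamily and differ in their ratio of S3 over S1. Cyp2d9 (chr15:82433437-82456845, plus strand) and Cyp2d26 (chr15:82790101-82794294, minus strand) were highest in opposite segments. Cyp2a4 (chr7:26307169-26315088) and Cyp2a5 (chr7:26835305-26843548), both on the plus strand, leaned toward S3 to different degrees. Gene positions are from GENCODE vM21, and the windows, from RefSeq on build GRCm38.p6, hold 250 bases before and 50 bases after the transcription start as RefSeq gives it. The Cyp2d9 window lies inside the GENCODE span of the gene, which starts further upstream, and the other windows hold the GENCODE start of their gene. They are printed 5' to 3' on the strand of the gene, at chr15:82452127-82452426 for Cyp2d9, chr15:82794196-82794495 for Cyp2d26, chr7:26306942-26307241 for Cyp2a4 and chr7:26835089-26835388 for Cyp2a5. Capitals mark matches, on either strand, to a TATA box (TATAAA) and the HNF4 half-site CAAAGTC, which do not overlap in these windows.
Cyp2d9: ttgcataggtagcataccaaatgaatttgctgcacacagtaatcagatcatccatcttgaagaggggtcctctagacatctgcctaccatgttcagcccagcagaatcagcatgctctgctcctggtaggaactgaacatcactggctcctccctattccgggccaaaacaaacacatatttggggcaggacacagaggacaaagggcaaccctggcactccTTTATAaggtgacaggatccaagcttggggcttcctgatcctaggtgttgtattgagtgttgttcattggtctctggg
Cyp2d26: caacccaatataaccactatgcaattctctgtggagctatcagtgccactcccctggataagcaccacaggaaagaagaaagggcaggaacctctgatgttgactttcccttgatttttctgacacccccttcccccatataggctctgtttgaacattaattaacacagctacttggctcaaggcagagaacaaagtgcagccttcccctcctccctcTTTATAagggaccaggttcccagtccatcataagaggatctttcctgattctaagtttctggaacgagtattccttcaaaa
Cyp2a4: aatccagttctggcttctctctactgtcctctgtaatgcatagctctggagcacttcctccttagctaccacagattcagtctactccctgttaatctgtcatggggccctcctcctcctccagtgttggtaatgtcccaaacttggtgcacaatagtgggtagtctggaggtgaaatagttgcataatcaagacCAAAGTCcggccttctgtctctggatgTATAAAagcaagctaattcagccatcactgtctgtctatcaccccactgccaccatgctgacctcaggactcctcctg
Cyp2a5: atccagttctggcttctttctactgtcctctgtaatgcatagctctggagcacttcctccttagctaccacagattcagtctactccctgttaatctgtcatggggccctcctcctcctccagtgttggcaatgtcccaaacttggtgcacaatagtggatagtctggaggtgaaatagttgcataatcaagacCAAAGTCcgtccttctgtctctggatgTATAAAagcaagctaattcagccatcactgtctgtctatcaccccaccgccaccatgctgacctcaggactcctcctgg
All 4 windows held the TATA letters, starting 28 to 31 bases before the start site. They lay on the strand of the gene in Cyp2a4 and Cyp2a5 and on the opposite strand in Cyp2d9 and Cyp2d26. Among these 4 windows the HNF4 letters were in both Cyp2a windows and in neither Cyp2d window. Globally aligned, the Cyp2a windows were identical at 294 of 301 aligned positions (97.7%) and the Cyp2d windows at 173 of 331 (52.3%). The near-identical Cyp2a windows thus belonged to genes whose pooled S3 over S1 log2 ratios were 4.74 and 1.59. The size of the Cyp2a5 ratio leans on library 3, which gave 7849 of the 15478 S1 cells. Its S1 cells read 62.1 CPM of Cyp2a5, above those of every other library. Of the 71 members with a window in the table, 31 (43.7%) held the TATA letters and 19 (26.8%) the HNF4 letters, against 13.6% and 4.44% of all 32851 windows. A member counted if any of its windows matched, whereas the background counts single windows, so these shares are in unlike units. Such matches describe the letters only. Of the last 500 bases of Cyp2a4, 10.5% of 90-base windows also occur in Cyp2a5 or a Cyp2a pseudogene, whereas the share was 1.70% in the other direction, so most reads from the 3' end could tell the pair apart.

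The cells that carried a gene also differed in number. If every cell of a library held the same share of Cyp2c23, 10.4% of S3 cells would show a UMI, and 9.94% did. For Cyp7b1 the same reckoning gave 24.9% of S3 cells, but only 7.32% had a UMI, with 5.52 UMIs in each of them on average, and the richest 1% of S3 cells held 45.2% of its UMIs. Cyp2d12, a gene whose substrate is not well known, showed the same trait in S1, where 19.99% of cells would be expected to have a UMI and 7.37% did, at 3.33 UMIs each. Its carrying cells were 6.94%, 5.58%, 6.32%, 9.27% and 11.2% of S1 cells in libraries 1 to 5, and held 4.90, 4.95, 2.24, 4.33 and 3.24 UMIs each on average. Carrying cells were thus few in every library, and their mean was lowest in library 3. Among the abundant members the observed share was 0.65 to 0.73 of the even share in S3 for Cyp4a14, Cyp2a4, Cyp2a5 and Cyp2d9, and at least 0.92 for Cyp4b1, Cyp2j5 and Cyp2j11. The even share was 94.6% for Cyp4b1 and 86.5% for Cyp2j5, so their ratios cannot be set against those of sparser genes. For Cyp4a14 and Cyp2j11 it was 50.5% each, and the ratios were 0.65 and 0.92. Cyp7b1 message in S3 was thus held by fewer cells than an even level would give.

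The next comparison asked whether proximal tubule cells with a UMI of Havcr1, the usual marker of tubule injury also called Kim-1, differed in P450 genes from those without. There were 3265 Havcr1-bearing and 40618 Havcr1-free cells, and 964 cells held at least 2 Havcr1 UMIs. A Havcr1 UMI was also seen in 8.80% of thick ascending limb, 7.42% of distal convoluted tubule and 1.17% of T and NK cells. In proximal tubule cells the share was 7.44%. How many of these UMIs came from free RNA was not tested, so a bearing cell is not shown to be an injured one. The bearing cells were unevenly distributed, with 152, 392, 2347, 340 and 34 in libraries 1 to 5, and were deeper, with a median of 7180 UMIs against 5119. All 6 other injury genes, which no gate used, read higher in the pooled values. The pooled log2 ratio, followed by that matched for library and segment as explained next, was 2.48 and 1.86 for Sox9, 2.43 and 2.83 for Vcam1, 2.24 and 1.16 for Krt20, 1.74 and 0.73 for Spp1, 0.71 and 0.90 for Cryab, and 1.05 and -0.34 for Lcn2, which thus changed sides. Of 10 proximal tubule genes that no gate used, all 10 read lower in the pooled values, from -1.09 for the urea cycle enzyme Ass1 to -0.01 for Gpx3, and 1 of them, Ass1, by at least 2-fold. Matched, 8 of the 10 were below 0 and none by 2-fold, from -0.48 for Ass1 to 0.08 for the transporter Slc5a8 and the water channel Aqp1.

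Pooled over libraries, Havcr1-bearing cells held less P450 message, at 3058 CPM against 3965 CPM in Havcr1-free cells, a log2 ratio of -0.37. Without library 3 this ratio was -0.15. Within libraries the log2 ratio was -0.15, -0.03, 0.26, 0.04 and -0.25 in libraries 1 to 5, so that it was not negative throughout. Library 3 gave 2347 of the 3265 bearing cells and had the lowest P450 level and the largest S1 share. When Havcr1-free cells were weighted to the library and segment of the bearing cells, over 15 combinations of library and segment, the log2 ratio of the sum was 0.0014. Depth, which also differed between the groups, was not part of this weighting. Within S1 cells the pooled sum differed by -0.04 and within S3 cells by -0.38 on the log2 scale, and weighted for library these became 0.15 and -0.12. Among S1 cells 3 of 38 members were at least 2-fold higher in the bearing cells and 7 lower, against 2.36% and 3.43% of genes, and after weighting for library, 1 was higher and 2 lower, against 1.28% and 3.39%. Among S3 cells 2 of 34 were higher and 2 lower, against 6.3% and 3.38%, and after weighting for library, 3 were higher and 2 lower, against 3.83% and 4.01%.

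Of 45 members with at least 20 UMIs over both groups, 1 was at least 2-fold higher in Havcr1-bearing cells, against 4.57% of the 15999 genes compared, and 5 were at least 2-fold lower, against 3.06%. The higher one was Cyp2s1 (log2 ratio 1.04), which had 75 UMIs in the bearing cells and a matched log2 ratio of 0.40, or 1.41 without library 3, on 28 UMIs. Among the lower ones, Cyp1b1, Cyp2c68 and Cyp4f15 (30 UMIs in gated cells, named after its values were seen) had 3, 2 and 1 UMIs in the bearing cells. The remaining pair were both Cyp2d genes. Cyp2d9 had a pooled log2 ratio of -1.37 (-1.48 to -1.26), but within libraries it was -0.30, -0.31, 0.82, 0.52 and 0.97, and matched for library and segment it was -0.05. Cyp2d12 had -1.06 (-1.19 to -0.93) and kept -0.67 after matching, or -1.45 without library 3. Within libraries, not matched for segment, it was lower in all 5, at -2.53, -1.87, -0.28, -1.02 and -2.28. Of its 483 UMIs in bearing cells, 473 remained without library 1, 480 without library 5 and 131 without library 3. The ratios of libraries 1 and 5 thus rest on few UMIs. Cyp2d26, the S1 gene, was short of 2-fold at -0.92 (-0.99 to -0.86), with a matched value of -0.51. Within libraries 1 to 5, where segment was not matched, its ratio was -0.81, -0.55, -0.75, -1.01 and -0.48. S3 cells, low in Cyp2d26, were 104 of 152 bearing cells in library 1 and 30 of 34 in library 5. Of all proximal tubule cells there, 53.9% and 40.6% were S3. How far segment enters these ratios within libraries was not tested. The lower count moved to 10 of 45 with the mean of each cell's CPM (4.97% of genes). It was 8 of 45 with 2 Havcr1 UMIs (4.93%) or pan-tubule cells (4.95%), and 3 of 44 with the gate at 0.5 (3.09%).

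Most abundant members moved little once library and segment were matched. The pooled and matched log2 ratios were -0.61 and -0.10 for Cyp4b1, -0.47 and 0.02 for Cyp4a10, -0.22 and -0.02 for Cyp4a31, 0.07 and 0.09 for Cyp4a14, -0.79 and -0.05 for Cyp2j11 and -0.24 and 0.04 for Cyp2j5. Cyp2e1 changed sides, from -0.10 to 0.15, and Cyp2a4 from -0.46 to 0.27. Cyp7b1 went from -0.64 pooled to 1.27 matched, with 0.89, 0.64, -1.43 and 3.10 within libraries 1, 2, 3 and 5, and without library 3 its pooled value was 0.47. The 34 bearing cells of library 5 held 227 of its 387 UMIs in bearing cells, and without library 5 the matched value was 0.57. Matched, 1 of the 45 members was at least 2-fold higher (Cyp7b1) and 2 were at least 2-fold lower, Cyp1b1 and Cyp2c38, both on few UMIs, against 2.1% and 3.27% of 15998 genes.

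**Figure D4:**
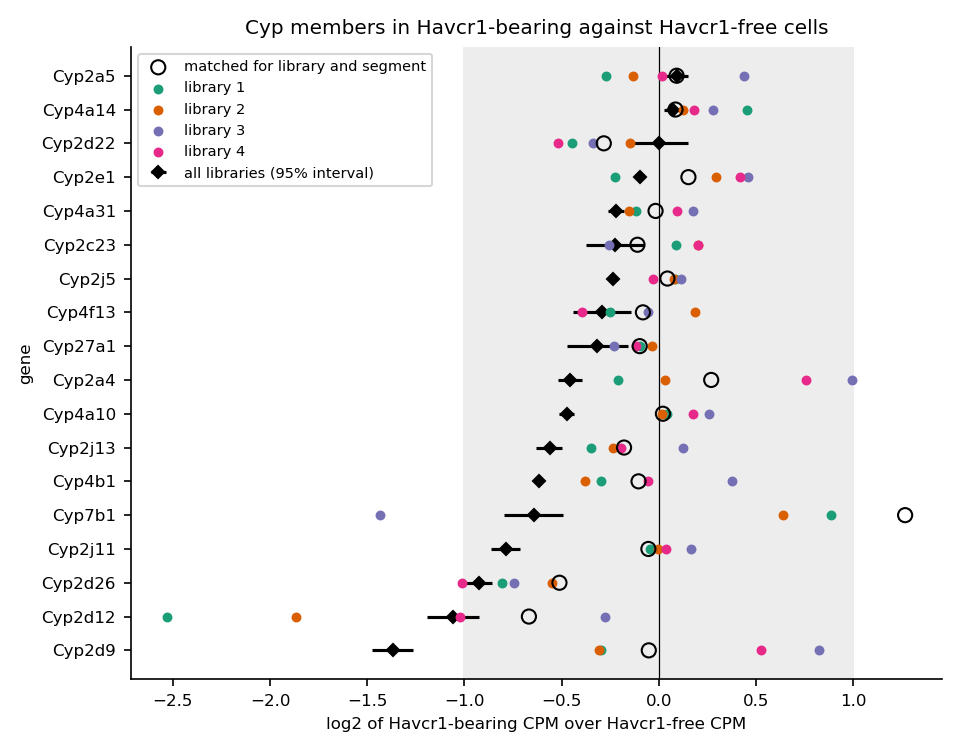
Log2 ratio of Havcr1-bearing CPM over Havcr1-free CPM in proximal tubule cells for 18 cytochrome P450 genes with at least 300 UMIs in the bearing cells: pooled (black diamonds, exact 95% intervals), matched for library and segment (open circles) and within libraries 1 to 4 (coloured points), the grey band marking less than 2-fold. The open circles lie nearer to 0 than the diamonds for most genes. Cyp2d26 and Cyp2d12 stay on the negative side in every library shown, where segment is not matched.

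Libraries differed in their P450 genes, with a median log2 ratio of highest over lowest library of 1.71 over the members and 0.84 over all genes compared. In proximal tubule cells the highest library was at least 2-fold above the lowest for 33 of 45 members, against 42.8% of the 15999 genes compared, and without library 3 for 20 of 41, against 30.2%. The segment shares differed as well, since S1 cells were 13.3%, 23.7%, 61.2%, 41.9% and 20.5% of proximal tubule cells in libraries 1 to 5 and S3 cells 53.9%, 38.4%, 8.58%, 17.9% and 40.6%. Within a segment the count was 23 of 38 members in S1 (background 37.3%) and 23 of 34 in S3 (39.5%). Havcr1-bearing cells were 2.01%, 4.85%, 18.3%, 4.73% and 0.412% of proximal tubule cells. As no label ties a library to a condition, these differences cannot be told apart from those of library preparation.

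In S3 cells the spread between libraries was wide for a few genes. Cyp7b1 read 23.3, 55.6, 2.21, 0.333 and 181 CPM in libraries 1 to 5, so that it was high in libraries 1, 2 and 5 and close to absent in libraries 3 and 4. The share of S3 cells with a Cyp7b1 UMI was 3.42%, 5.71%, 1.00%, 0.233% and 18.4%. Cyp2d9 read 229.7, 85.5, 38.8, 20.002 and 242 CPM, and Cyp2a4 read 363, 203, 164, 78.8 and 337 CPM, both highest in libraries 1 and 5 and lowest in library 4. Cyp2j11 read 171, 143, 49.7, 126 and 202 CPM. Among members with at least 1000 UMIs in S3 cells, these 4 had the widest range across libraries, from 4.07-fold for Cyp2j11 to 543-fold for Cyp7b1. Several abundant genes varied less. In S3 the highest library was 1.61 times the lowest for Cyp2j5, 1.76 times for Cyp2e1, 1.60 times for Cyp4a31 and 1.81 times for Cyp4b1. Cyp4a14 differed from these, with 158, 131, 160.2, 271 and 126 CPM, highest in library 4.

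In S1 cells library 3 stood apart for several members. Cyp2d26 read 107 CPM there and between 343 and 365 CPM in the other 4 libraries. Cyp2d12 read 24.3 CPM in library 3 and between 43.0 and 73.1 CPM elsewhere. Cyp2a5 went the other way, with 62.1 CPM in library 3 and between 18.5 and 26.5 CPM elsewhere. Cyp4a14 in S1 was 27.8, 22.9, 82.6, 87.2 and 41.5 CPM, high in libraries 3 and 4. Cyp2j5, at 496, 519, 399.6, 589 and 600.5 CPM, and Cyp4a31, at 180.1, 148, 143, 161 and 141 CPM, stayed within 2-fold.

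**Figure D5:**
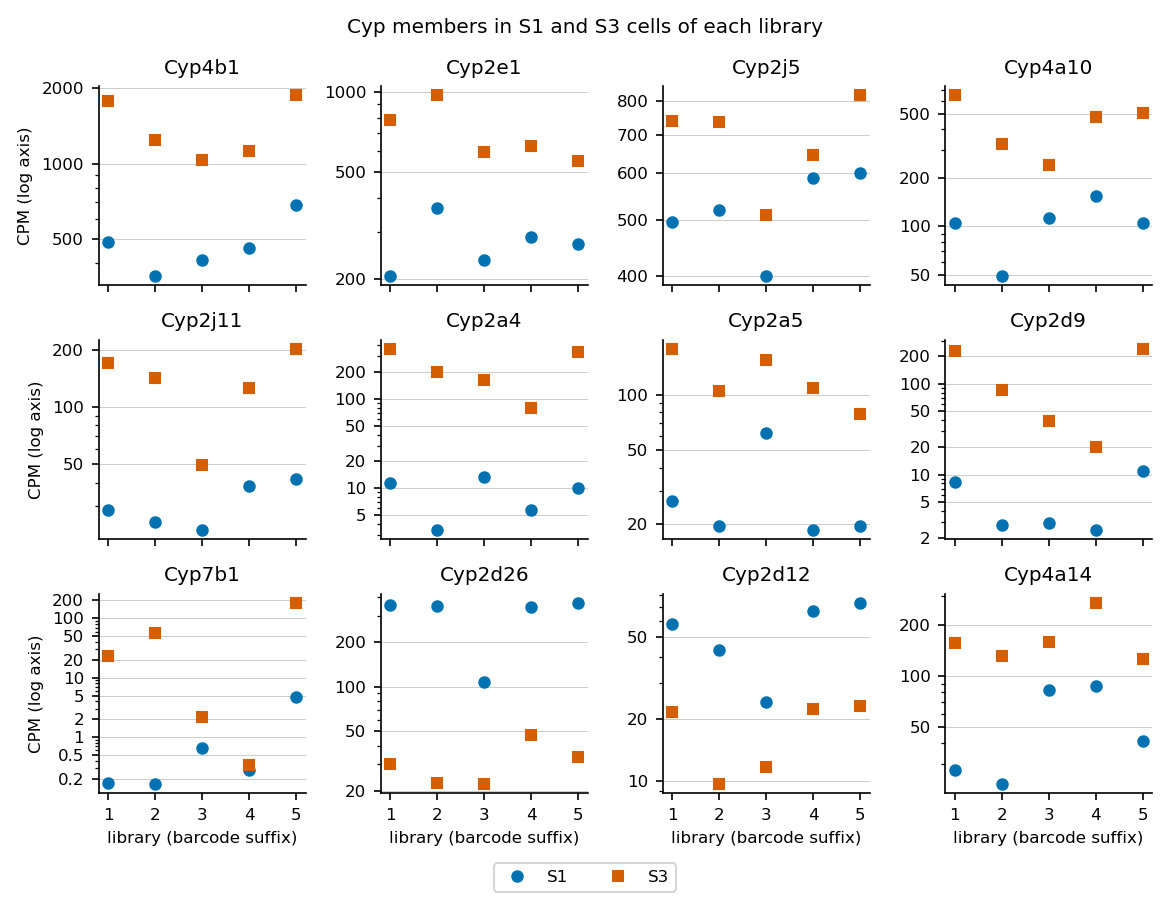
Level of 12 cytochrome P450 genes in S1 cells (blue circles) and S3 cells (orange squares) of each library, in CPM on a log axis that differs between panels. S3 lies above S1 in each library for Cyp4b1, Cyp2e1, Cyp2j5, Cyp4a10, Cyp2j11, Cyp2a4, Cyp2a5, Cyp2d9 and Cyp4a14 and below it for Cyp2d26 and Cyp2d12, and Cyp7b1 falls to near 0 in S3 cells of library 4.

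A list of 24 partners and regulators of P450 enzymes was read in the same way. The electron carriers were abundant in proximal tubule cells, with Cyb5a (cytochrome b5) at 1981.6 CPM and Por at 157 CPM, as was Alas1, the first enzyme of heme synthesis, at 241 CPM. Of 23 partners with enough UMIs, 3 were at least 2-fold higher in S3 than in S1 and 2 lower, where the shares over all genes were 5.22% and 17.3%. The higher ones were Cyb5a (log2 ratio 1.13) and the epoxide hydrolases Ephx2 (1.51) and Ephx1 (1.46), of which Ephx2 breaks down the fatty acid epoxides made by Cyp2j and Cyp2c enzymes. Ephx1 was negative within libraries 3 and 5. The lower ones were Ppargc1a (-1.21) and Nr1i2 (-1.19), the xenobiotic receptor PXR. Other regulators were close to even, among them Hnf4a (0.16) and Nr1h4 (0.13), while Ppara was at -0.57. Between Havcr1-bearing and Havcr1-free cells none of the 23 differed by 2-fold in the pooled values, with Ephx1 nearest at 0.98 (1.21 when matched for library and segment).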

How the data were processed

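Cells of 5 kidney samples (4 AKI, 1 Sham) were profiled by 10x Genomics 3' sequencing. Per the labels, the reads were processed with Cell Ranger 6.0 on build mm10, and the authors deposited 1 matrix of raw UMI counts, not normalized and without cell calling, in which barcodes end in 1 of 5 library digits. Here cells were called per library in the 2 steps of Cell Ranger (barcodes over 10% of the 99th percentile of the top 3000, then a test of barcodes of at least 500 UMIs against the profile of ranks 45000 to 90000, 10000 simulations, FDR 0.01). Of 70245 called barcodes, those with fewer than 200 genes (514) or over 25% mitochondrial UMIs (12615) were dropped, after which the 57579 kept cells had a median of 4616 UMIs and 1697 genes. Kept cells numbered 10020, 11311, 18912, 8240 and 9096 in libraries 1 to 5. A cell took a class if its marker share reached 0.3 of that class's reference and at least 3 markers were seen (2 for lists of up to 6). Doublets were removed only as an alternative, by Scrublet score (scanpy 1.11.5).

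For each group, UMIs were added up and expressed as CPM. Called means at least 2-fold among genes with at least 20 UMIs over both groups, and 0 UMIs were set to 3, as a bound in that direction only. With 1 sample there was no test. Ratios carry exact conditional binomial 95% intervals. Genes named are those with at least 50 UMIs in gated cells, full values being given for the 30 with the highest CPM in their highest class. The calling and ratio steps were tested on simulated data (Python 3.11.15, numpy 2.4.6, scipy 1.17.1). Members, lists and comparisons were chosen with earlier results of these data known. Of 10 further symbols that begin with Cyp and miss the rule, such as Cyp51 and Cyp4a12a, none was analysed. Some regulators of the partner list are not reported here. Alternatives changed the calling, filters, gates, doublets, depth, libraries and form of the average.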

Additional observations from a re-analysis of the deposited data

Results flagged for a closer look

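For the 30 members given with full values, each of 58 sets of 5 library values in S1 or S3 cells was checked for a library whose gap to its nearest neighbour exceeded 0.71 of the whole range. Chance alone marks about 1 in 20 such sets, and 5 were marked. Cyp7b1 in S1 cells was 4.77 CPM in library 5 and at most 0.658 CPM in the others. Cyp2a5 in S1 cells was 62.1 CPM in library 3 and at most 26.5 CPM in the others. Cyp2d26 in S1 cells was 107 CPM in library 3 and at least 343 CPM in the others. Cyp4a14 in S3 cells was 271 CPM in library 4 and at most 160.2 CPM in the others. Cyp1b1 in S3 cells was 1.81 CPM in library 1, on 42 UMIs.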

How the results depend on the processing

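No paired analysis was possible because the 5 labelled samples are 1 per group and no label ties a library to a sample. The limits are those of 1 pooled matrix: intervals cover counting error only, no test across samples was made, classes of under 100 cells rest on few UMIs, and members whose 3' ends share sequence with a relative are uncertain.

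The S3 counts were 14 higher and 13 lower, the Havcr1 counts 1 higher and 5 lower with a summed log2 ratio of -0.37, and the summed proximal tubule level 3872 CPM. With every barcode of at least 1000 UMIs the summed level was 3854 CPM. With at most 10% mitochondrial UMIs, 6 of 35 members were lower in S3 (12.8% of genes) and the level was 3305 CPM. There 0 of 38 members were higher in Havcr1-bearing cells (2.88% of genes). With the gate at 0.5 of the reference, 9 of 42 were higher in S3 (4.69% of genes). The Havcr1 counts were then 2 and 3 of 44 (4.26% and 3.09% of genes), the summed log2 ratio -0.29 and the level 4052 CPM. Without the highest Scrublet scores, 2 of 42 were higher in Havcr1-bearing cells (4.5% of genes), the sum was -0.35 and the level 3931 CPM. Thinned to 2000 UMIs, 7 of 31 were lower in S3 (13.8% of genes) and 2 of 35 higher in Havcr1-bearing cells (5.4%). The sum was then -0.47 and the level 3724 CPM, and Cyp1b1, with 0 UMIs left in the bearing cells, gave no ratio. The mean of each cell's CPM gave 10 of 45 lower in Havcr1-bearing cells (4.97% of genes) and a level of 3560.4 CPM. Requiring 2 Havcr1 UMIs gave 2 of 45 higher and 8 lower (5.59% and 4.93% of genes). Pan-tubule cells gave 8 of 45 lower (4.95% of genes) and a sum of -0.50.

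Leaving out 1 library at a time, S3 counts ranged from 10 to 14 in both directions, of 37 to 41 members. The shares of all genes were 4.88% to 6.01% higher and 13% to 19% lower. Of 41 to 43 members, Havcr1 higher ranged from 0 to 3 (3.09% to 5.51% of genes) and lower from 5 to 6 (2.9% to 3.83%). The Havcr1 sum ranged from -0.45 to -0.15 and the level from 3588 to 4459 CPM. Members differing 2-fold between libraries ranged from 20 to 30 (30.2% to 39.6% of genes), against 33. The count of 3 was without library 4, and -0.15, 4459 and 20 were those without library 3. The S3 over S1 ratio of Cyp1b1 ranged from -0.86, without library 1, to 2.14.

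Chosen after seeing the data, matching for library and segment gave 2 of 45 lower (3.27% of genes) and a Havcr1 sum of 0.0014. Leaving out 1 library at a time under that matching gave 0 to 3 higher and 2 to 5 lower, of 41 to 43 members. No share over all genes was taken for these counts, so nothing is read from them. The sums were 0.029, 0.041, -0.14, 0.00996 and 0.00765 without libraries 1 to 5. Within S1, weighted for library, 2 of 38 were lower (3.39% of genes), the sum was 0.15 and Cyp2d9 turned to 0.51. Within S3, weighted for library, 3 of 34 were higher and 2 lower (3.83% and 4.01% of genes), and the sum was -0.12. The cause of these shifts was not tested. Single genes were followed only among the 30 members given with full values, so not every called member is covered. Of 233 values of the 18 S3 genes past 2-fold among them, 232 kept their sign and 211 stayed past 2-fold. Of 60 values of the 4 Havcr1 genes past 2-fold among the same members, 59 kept their sign and 46 stayed past 2-fold. Under the added settings 11 and 2 of 12 did.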

Other observations

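The 91 members were spread unevenly over the genome. Chromosome 19 held the most members, 18, but only 5009 of the member UMIs in gated cells. Chromosome 4 held 16 members and 711005 UMIs, and chromosome 7 held 15 members and 227510 UMIs. Next by members were chromosome 17, with 11 and 8285 UMIs, and chromosome 15, with 10 and 62858 UMIs. Transcript ends were shared for 21 members, with Cyp2c40 (49.9% of windows, 1 UMI) and Cyp4a32 (47.0%, 35 UMIs) the most affected, both named after their values were seen, and the counts of such genes may be split with their relatives. The 6318 cells that took no class had a median of 1415 UMIs and a summed member level of 696 CPM. Cyp2d12 was held by few S3 cells as well, with a UMI in 3.56% of them where an even level would give 9.98%.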
